A study of Homo sapiens with 3 samples.

Results

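The genes described here are 10 mesenchymal and bone-lineage genes, chosen by symbol as relevant to an osteosarcoma line: FN1, CD44, VIM, RUNX2, ALPL, SPARC, THBS1, CAV1, AXL and CDH2. All 10 were among the 17201 genes of the deposited table, so none (0) was absent. Of 19124 RefSeq protein-coding genes matched to a single Ensembl identifier, 60.6% were in the table. The 10 were chosen with earlier results of these data known, so this comparison tests nothing. The counts came from PAR-CLIP of CTCF, a DNA-binding zinc-finger factor known for shaping chromatin loops, in U2OS, an established line of human osteosarcoma cells. PAR-CLIP feeds cells 4-thiouridine (here 400 µM for 16 to 24 h), ultraviolet light at 365 nm (400 mJ/cm2) links it to proteins in contact with the RNA, and RNA attached to the precipitated protein is sequenced. The labels give 2 biological replicates, precipitated from nuclear lysates with different lots of an anti-CTCF antibody, and a merge of both. The merge, from 1 condition, is the sample analysed here, so no value below has a replicate error and no difference between conditions was tested. A control precipitation was not analysed here. The series asks which RNAs touch CTCF. Counts recovered with CTCF are not RNA levels, and RNA abundance in these cells was not analysed here.

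Mesenchymal cells, such as fibroblasts and osteoblasts, secrete a fibrous matrix, hold it through adhesion receptors, and carry a vimentin cytoskeleton and few of the tight lateral junctions of an epithelium. Osteoblasts arise from mesenchymal progenitors under the transcription factor RUNX2 and then make enzymes and proteins for mineral deposition, among them the alkaline phosphatase ALPL. Osteosarcoma is a tumour of such bone-forming cells, and its cells often stop short of full maturation.

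The promoters below belong to the genes with the highest count (FN1) and the lowest count (ALPL) of the 10, and to RUNX2, whose distal promoter is linked to bone and which has a second, proximal promoter. Each line gives the 250 bases before a start site, 5′ to 3′, from RefSeq on GRCh38.p14. Capitals mark AGGGGGC, letters from the middle of the known CTCF DNA motif, or ACCACA, the core that RUNX proteins bind. Both strands were searched.
FN1 at chr2:215436069-215436318, minus strand: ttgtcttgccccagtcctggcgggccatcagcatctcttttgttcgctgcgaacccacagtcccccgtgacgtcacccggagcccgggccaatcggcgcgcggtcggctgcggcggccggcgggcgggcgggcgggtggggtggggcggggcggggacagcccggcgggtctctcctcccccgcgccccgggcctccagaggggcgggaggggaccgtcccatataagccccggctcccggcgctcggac
ALPL at chr1:21509173-21509422, plus strand: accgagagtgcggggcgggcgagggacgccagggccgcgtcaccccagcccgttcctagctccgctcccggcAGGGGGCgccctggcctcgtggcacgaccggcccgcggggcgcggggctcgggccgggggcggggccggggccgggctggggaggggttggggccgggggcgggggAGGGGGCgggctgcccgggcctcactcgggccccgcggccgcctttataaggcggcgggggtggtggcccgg
RUNX2 distal at chr6:45328080-45328329, plus strand: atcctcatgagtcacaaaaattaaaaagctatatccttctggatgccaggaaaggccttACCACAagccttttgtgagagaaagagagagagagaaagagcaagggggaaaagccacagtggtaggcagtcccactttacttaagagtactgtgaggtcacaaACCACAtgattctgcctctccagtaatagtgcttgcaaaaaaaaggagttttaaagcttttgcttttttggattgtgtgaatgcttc
RUNX2 proximal at chr6:45422025-45422274, plus strand: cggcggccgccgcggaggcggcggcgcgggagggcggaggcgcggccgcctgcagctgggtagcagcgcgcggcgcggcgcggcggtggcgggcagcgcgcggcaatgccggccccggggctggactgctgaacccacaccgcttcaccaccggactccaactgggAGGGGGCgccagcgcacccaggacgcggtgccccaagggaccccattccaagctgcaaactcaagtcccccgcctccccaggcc
The CTCF letters occurred in 6 of the 17 start-site windows of the 10 genes and in 13.3% of 35116 windows of the same length over all genes. The letters were shortened after matches to a longer form had been seen, so this is no test of enrichment. The windows are not independent, since 5 of the 10 genes gave several and some of those at CAV1 overlap. These 6 belong to ALPL (2 matches), RUNX2 at the proximal start, THBS1, CAV1, AXL and CDH2. The RUNX core occurred in 3 of the 17 windows, those of the RUNX2 distal promoter (2 matches), VIM and CAV1, and in 10.98% of all windows. The matches share no base (0). They describe the DNA sequence and mark no measured site. The GC content of the window was 76.4% at FN1, 83.6% at the ALPL start shown, 41.6% at the distal and 78.0% at the proximal RUNX2 start, beside a median of 58.0% over all windows. RefSeq gives 2 more ALPL starts, whose windows had 0 matches to either motif and GC contents of 60.4% and 49.6%.

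Together the 10 genes held 3203 counts, or 0.242% of the summed count of 1322047. Their median was 212 counts, against 43 over the 12220 listed protein-coding genes. Over the 4 of the 10 that overlap no other listed gene (FN1, VIM, THBS1 and ALPL) the median was 53.5. Of the 10, 7 had 100 counts or more, against 26.1% of the listed protein-coding genes. At 10 counts or more there were 9 of the 10, against 54.1% of the RefSeq protein-coding genes. Each count belongs to the hg19 interval that the table gives for the gene, and larger intervals tended to have more. Across the protein-coding genes, which share 1 merged sample and are not replicates, Spearman's rho of count with length was 0.434. Each gene was therefore also placed among the 200 listed protein-coding genes nearest to it in interval length. By that measure 9 of the 10 lay above the median of their neighbours in length, against 49.6% of all listed protein-coding genes, and 5 lay at or above the 90th percentile, against 10.3%. These shares describe 1 merged sample. The 10 genes were chosen with earlier results of these data known, so setting them beside all genes is a description and not a test. In a pool of cells, a low count in every cell and a high count in a few cells cannot be told apart.

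**Figure D1:**
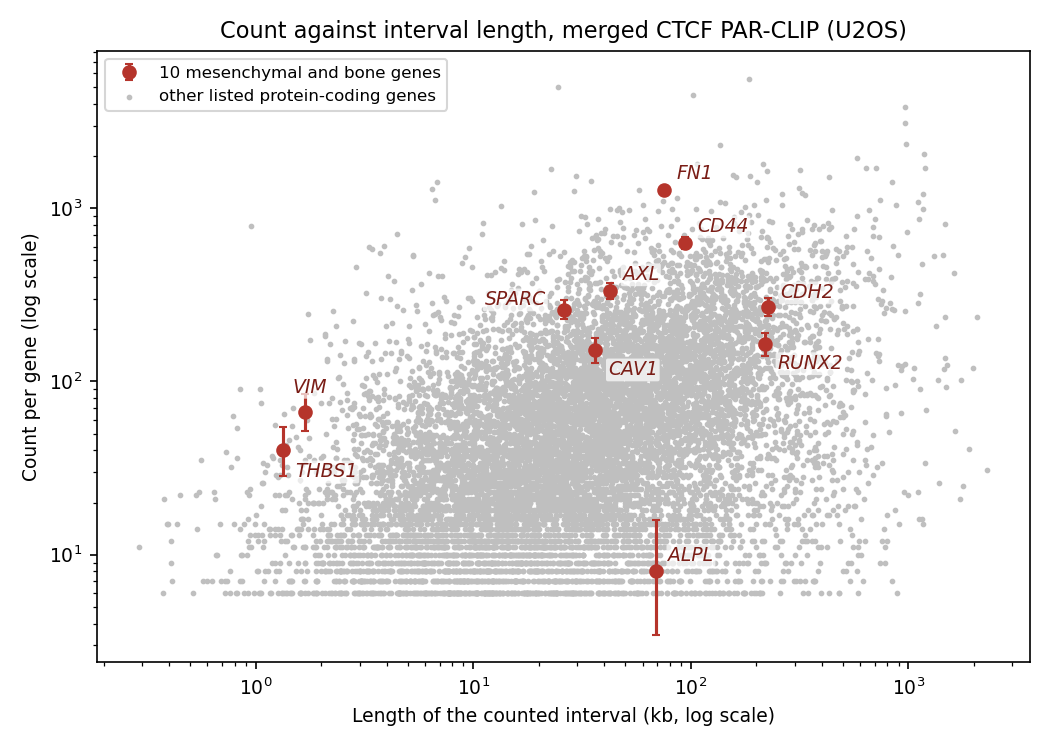
Count per gene against the length of its counted interval in kb, both on log scales. Red points are the 10 mesenchymal and bone genes with 95% Poisson intervals, and grey points are the other listed protein-coding genes that have a symbol. FN1, with 1277 counts, stands at the upper edge for its length, ALPL, with 8, stands near the floor of 6, and VIM and THBS1 lie far to the left because their intervals are under 2 kb.

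The secreted matrix genes ranged widely. FN1 (ENSG00000115414), for fibronectin, the fibre-forming glycoprotein that cells grip through integrins, lies on chromosome 2 (216225163 to 216300790) and had 1277 counts, with a 95% Poisson interval of 1208 to 1349. None (0) of its 200 neighbours in length had more, their highest count being 1098 and their median 73.5. FN1 ranked 29th by count among the listed protein-coding genes and held 39.9% of the counts of the 10 genes (Clopper-Pearson interval 38.2 to 41.6%). That share was 14.4% by count per kb and 91.7% among the 4 genes that overlap no other. SPARC (ENSG00000113140), for osteonectin, a collagen- and calcium-binding protein abundant in bone, had 260 counts (229 to 294) on chromosome 5 (151040657 to 151066726). Its neighbours in length had a median of 37.5, and 4 of the 200 were higher. THBS1 (ENSG00000137801), for thrombospondin-1, a matricellular protein that can activate latent TGF-beta, had 40 counts (28.6 to 54.5) on chromosome 15 (39873280 to 39874608). That is 2.86 times the median of 14 of its neighbours in length, 25 of which were higher. The THBS1 interval is only 1.33 kb long, shorter than the coding sequence of thrombospondin-1, so the count covers a piece of the gene.

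Genes of the cell surface came next. CD44 (ENSG00000026508), for the hyaluronan receptor, had 632 counts (584 to 683) on chromosome 11 (35160417 to 35253949), the second highest of the 10. Of its 200 neighbours in length 3 had more, and their median was 94. AXL (ENSG00000167601), a receptor tyrosine kinase of the TAM family that binds GAS6, had 334 counts (299 to 372) on chromosome 19 (41725108 to 41767671), with 8 of 200 neighbours higher and a median of 55.5. CDH2 (ENSG00000170558), for N-cadherin, the cadherin of mesenchymal and neural cells, had 270 counts (239 to 304) over 226 kb of chromosome 18 (25530930 to 25757410). It lay less far above its neighbours, at 2.01 times their median of 134 with 46 of 200 higher. CAV1 (ENSG00000105974), for the coat protein of the membrane pits called caveolae, had 151 counts (128 to 177) on chromosome 7 (116164839 to 116201230), with 30 of 200 neighbours higher and a median of 49.

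VIM (ENSG00000026025) encodes vimentin, the intermediate filament protein that marks mesenchymal cells. It had 67 counts (51.9 to 85.1) on chromosome 10 (17270258 to 17271949), in an interval of 1.69 kb that is too short to hold the whole gene with its introns. Its neighbours in length had a median of 13, and 13 of the 200 were higher. Beyond the VIM interval, at a distance of 3.38 kb, a listed gene annotated as antisense had 73 counts in 1.51 kb (17275324 to 17276832), which is more than VIM itself. Beyond that of THBS1, at 11.2 kb, another antisense gene had 20 counts in 0.651 kb. VIM-AS1, on the other side of VIM, had 10 counts over 12.7 kb. Since strand appears not to have entered the counts, the strand of the RNA behind them cannot be read.

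RUNX2 and ALPL stood lowest of the 10 for their length. RUNX2 (ENSG00000124813) had 164 counts (139.9 to 191) on chromosome 6 (45295894 to 45514946), near the middle of its neighbours in length, whose median was 141 and of which 87 of 200 were higher. ALPL (ENSG00000162551), the tissue-nonspecific alkaline phosphatase that frees phosphate for bone mineral, had 8 counts (3.45 to 15.8) over 69.0 kb of chromosome 1 (21835865 to 21904905). Of its 200 neighbours in length 191 were higher, and their median was 68.5. With 8 counts beside a floor of 6, ALPL is barely above what the table lists.

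Per kb of interval the order differed from that of the counts. VIM came highest at 39.6 counts per kb (30.7 to 50.3), followed by THBS1 at 30.1 (21.5 to 41.0) and FN1 at 16.9 (16.0 to 17.8). The intervals of VIM and THBS1 are those that cover a piece of the gene, so their densities are not whole-gene values. SPARC had 9.97 counts per kb (8.80 to 11.3), AXL 7.85 (7.03 to 8.74) and CD44 6.76 (6.24 to 7.31). CAV1 had 4.15 counts per kb (3.51 to 4.87) and CDH2 1.19 (1.05 to 1.34). RUNX2 had 0.749 counts per kb (0.638 to 0.872) and ALPL 0.116 (0.0500 to 0.228). The median over the listed protein-coding genes was 1.54 counts per kb, so CDH2, RUNX2 and ALPL lay below it. That median is not matched for length. Among genes of similar length CDH2 stood at percentile 77 and RUNX2 at 56.5, both above the middle, and ALPL at 3.5. Of the 9 pairs of neighbours in this order, 1 had a ratio whose exact 95% interval included 1, VIM over THBS1 at 1.32 (0.876 to 2.00). The closest of the others, AXL over CD44, had a ratio of 1.16 (1.01 to 1.33). FN1 over ALPL, whose intervals are of similar length, had a ratio of 146 (73.7 to 338). These intervals cover counting error only, and reads amplified by PCR are not independent molecules.

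**Figure D2:**
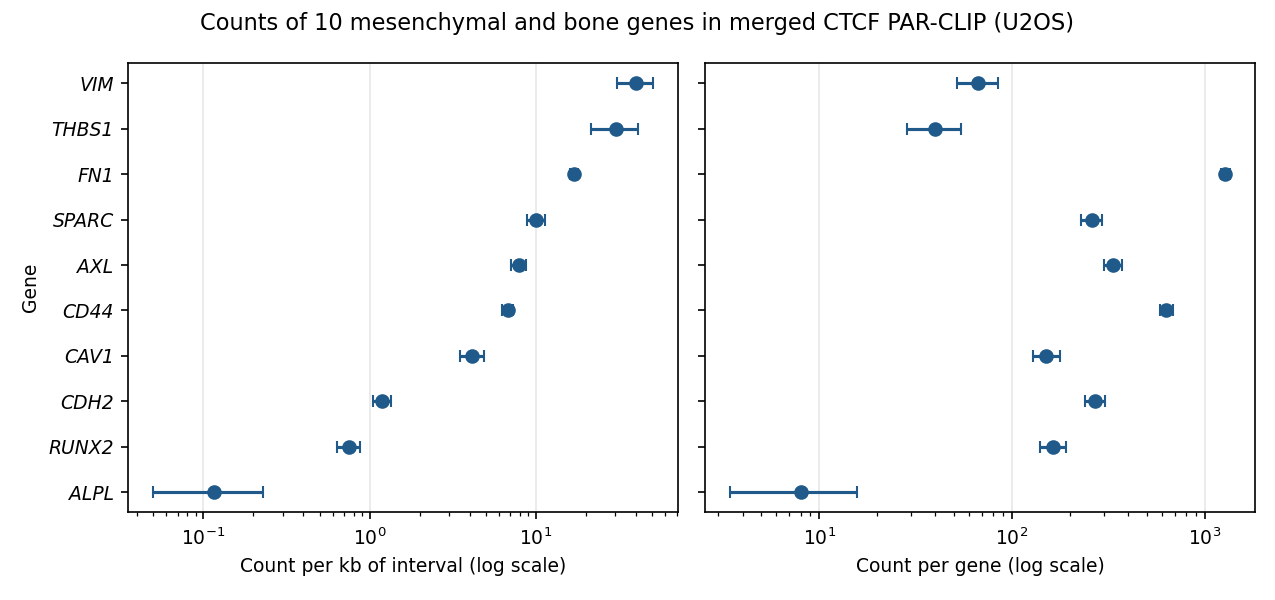
Count per kb of interval (left) and count per gene (right) for each of the 10 genes, on log scales, in the order of count per kb. Bars are 95% Poisson intervals. The left panel runs from 39.6 for VIM down to 0.116 for ALPL, while FN1 leads the right panel with 1277.

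Genes that overlap the 10 show where inside an interval counts lay. In 2435 pairs one listed interval lay inside another, and in 0 of them did the inner gene have more counts, as counting without regard to strand would give. On that reading, the count of an inner gene is also the count of that stretch of the outer gene. AXL held an antisense gene of 0.625 kb with 18 counts, starting 2.22 kb from the lower end of the interval, or 28.8 counts per kb beside 7.53 in the rest of AXL, a ratio of 3.82 (2.24 to 6.14). A gene is listed only from 6 counts upwards. At 0.625 kb that floor alone gives a density above the rest of AXL, so the direction of this ratio was fixed in advance. In CD44 the stretch under CD44-AS1 had 19 counts in 4.64 kb, or 4.09 per kb beside 6.90 in the rest, a ratio of 0.594 (0.355 to 0.935). In CAV1 the stretch under an antisense gene had 9 counts in 9.25 kb, or 0.973 per kb beside 5.23 in the rest, a ratio of 0.186 (0.0833 to 0.363). The antisense stretch near the lower end of CDH2 had 9 counts in 9.17 kb, or 0.982 per kb beside 1.20 in the rest. That ratio was 0.817 with an interval that included 1 (0.370 to 1.58).

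Partial overlaps set limits for SPARC and RUNX2. CLMAT3, an antisense gene with 9 counts, shares 10.2 kb with SPARC, 39.2% of its interval, so on the same reading at most 9 of the 260 SPARC counts lay there and at least 251 in the other 15.8 kb. SPARC is on the minus strand in RefSeq, so the 15.8 kb stretch is the one towards the 3′ end. SUPT3H, a transcription coactivator gene with 19 counts over 569 kb, shares 49.8 kb with RUNX2. At most 19 of the 164 RUNX2 counts lay in that stretch, 22.7% of the interval, and at least 145 in the other 169 kb. In counts per kb, this is at most 0.382 in the shared stretch beside at least 0.857 in the rest. The shared stretch is at the lower end of the interval, towards the 5′ end of this plus-strand gene, and the 2 RUNX2 starts printed above lie 93.9 kb apart in RefSeq. The other 4 genes, FN1, VIM, ALPL and THBS1, overlapped no other listed gene.

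**Figure D3:**
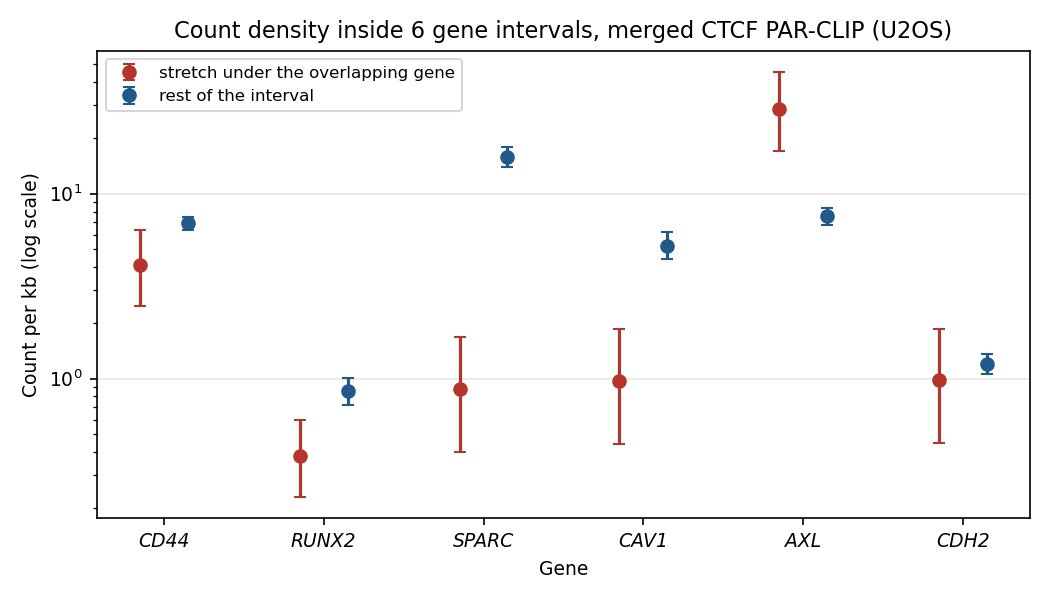
Counts per kb (log scale) in the stretch under an overlapping gene (red) and in the rest of the interval (blue) for the 6 genes that overlap another listed gene, with 95% Poisson intervals. For RUNX2 and SPARC the red point is an upper limit and the blue point a lower limit. AXL has the denser stretch under the inner gene (28.8 beside 7.53), a direction that the listing floor of 6 counts fixed for so short a gene. CD44, CAV1, SPARC and RUNX2 have the sparser one, and the intervals of CDH2 overlap.

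Each gene was set beside others of its pathway, in lists chosen with earlier results of these data known. In the list of matricellular and fibrillar matrix genes 15 of 17 were listed and 8 had 100 counts or more, with a median of 110. Over all RefSeq protein-coding genes, 60.6% were listed and 16.0% had 100 counts or more. Besides FN1, the highest were FBN2, for fibrillin-2, with 523 counts and TNC, for tenascin-C, with 320. THBS2, for a second thrombospondin, was lowest at 8, and THBS3 and POSTN, for periostin, were absent. Of the 12 genes of hyaluronan and CD44 partners 6 were listed, 5 of them at 100 or more. MSN, for moesin, which ties CD44 to actin, had 1098 counts, and EZR, for the related ezrin, 393. HYAL2, for a hyaluronidase, was lowest at 14. The hyaluronan synthase genes HAS1, HAS2 and HAS3 were absent, as were HYAL1, SPP1, for osteopontin, and TNFAIP6. The list's median was 288.

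Of the TAM receptors and ligands all 5 were listed, with a median of 21 and only AXL at 100 or more. For this list and the caveolar one, the shares over all RefSeq protein-coding genes were 60.6% listed and 16.0% at 100 or more. The receptor MERTK had 81 counts, the ligand PROS1 21, the receptor TYRO3 17 and the ligand GAS6 10. Of the 5, 1 stood above the median of its neighbours in length, AXL, against 49.6% of all listed protein-coding genes. Of 10 caveolar genes 8 were listed, 2 at 100 or more, with a median of 32. CAVIN1, the coat protein that shapes caveolae with caveolin, had 432 counts and PACSIN2 62. CAV1 had 4.15 counts per kb and CAVIN1 20.5. CAV3, the muscle caveolin, and EHD2 were lowest at 7. CAV2, which lies next to CAV1 in RefSeq, and CAVIN3 were absent.

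Of 10 classical cadherin and catenin genes 9 were listed and 8 had 100 counts or more, with a median of 156. Beside this list and the next, 60.6% of all RefSeq protein-coding genes were listed and 16.0% had 100 counts or more. CDH4, for R-cadherin, had 692 counts over 688 kb, VCL, for vinculin, 645 and CTNNA1, for alpha-catenin, 64. JUP, for plakoglobin, was absent. CDH2 had 1.19 counts per kb and CDH4 1.01. Each among genes of its own length, CDH2 stood at percentile 77 and CDH4 at 89. Of 11 genes for intermediate filaments and their cross-linkers 8 were listed, 4 at 100 or more, with a median of 106.5. The cross-linkers DST and PLEC had 5606 and 5026 counts and KRT8 206. NES, for nestin, was lowest at 15, and DES, GFAP and MACF1 were absent.

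Signalling genes linked to this state were listed throughout. All 16 TGF-beta genes were listed, 10 of them at 100 or more, with a median of 116.5. The shares over all RefSeq protein-coding genes were 60.6% listed and 16.0% at 100 or more. LTBP2, for a protein that binds latent TGF-beta, had 406 counts, the ligand gene TGFB2 313 and the mediator SMAD3 267. The inhibitor SKIL was lowest at 12, in an interval of 2.40 kb, where it had 5.01 counts per kb. All 14 YAP and TEAD genes were listed, 11 at 100 or more, with a median of 167.5. TEAD1, the DNA-binding partner of YAP1, had 1212 counts, more than any of its 200 neighbours in length. The target genes ANKRD1 and CCN1 had 522 and 324 counts, the kinase gene LATS1 had 346, and TEAD2 was lowest at 25. In these lists, 10 of 16 and 11 of 14 genes lay above the median of their neighbours in length, against 49.6% of all listed protein-coding genes. Also above that share were 8 of 9 cadherin, 5 of 6 hyaluronan, 6 of 8 filament, 5 of 8 caveolar and 3 of 5 epithelial genes. The matrix list with 8 of 15 and the RUNX2 list with 4 of 8 lay near 49.6%. Lower were osteoblast with 3 of 7, EMT with 2 of 5, and cartilage and fat with 2 of 5. Lowest were TAM with 1 of 5 and endothelial with 0 of 4.

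Of 10 RUNX2 family and partner genes 8 were listed, 3 at 100 or more, with a median of 76. Over all RefSeq protein-coding genes the shares were 60.6% listed and 16.0% at 100 or more, here and for the osteoblast list below. RUNX1, better known from blood formation, had 754 counts and the corepressor gene TLE3 244. RUNX2 had 0.749 counts per kb over 219 kb and RUNX1 7.47 over 101 kb. Each among genes of its own length, RUNX2 stood at percentile 56.5 and RUNX1 at 99.5. RUNX3 and HDAC6 were lowest at 12, HDAC6 in an interval of 4.28 kb, where it had 2.80 counts per kb. TWIST1 and DLX5 were absent. Of 15 osteoblast lineage genes 7 were listed, 3 at 100 or more, with a median of 59. ATF4, a transcription factor of osteoblasts and of the stress response, had 167 counts, the BMP receptor gene BMPR2 158, its relative BMPR1A 116 and the ligand gene BMP2 8. Between these lay CBFB with 59 counts, PHEX with 50 and TNFRSF11B with 34. Absent were BGLAP, for osteocalcin, SPP1, IBSP, DMP1 and SOST, which are among the later bone genes, and the regulators SP7, DLX5 and MSX2.

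Of 10 EMT transcription factors, regulators of the switch from epithelial to mesenchymal state, 5 were listed, 2 at 100 or more, with a median of 21. For this list and those below, the shares over all RefSeq protein-coding genes were 60.6% listed and 16.0% at 100 or more. TCF4 had 272 counts, ZEB1 206, TWIST2 21, and SNAI2 and PRRX1 were lowest at 10. ZEB2, SNAI1, TWIST1, FOXC2 and KLF8 were absent. Of 18 epithelial markers 5 were listed, 3 (16.7%) at 100 or more, which is near the share over all genes. KRT8 with 206 and KRT18 with 146 have overlapping intervals and may share reads, OCLN, for occludin, had 121, CDH1, for E-cadherin, 13 and KRT14 8. The other 13 were absent: EPCAM, KRT19, KRT5, CLDN3, CLDN4, CLDN7, ESRP1, ESRP2, GRHL2, OVOL1, RAB25, ST14 and CDH3. CDH2 had 1.19 counts per kb and CDH1 0.132. The other listed epithelial genes had more per kb than CDH2, with KRT18 at 37.2, KRT8 at 3.91, OCLN at 1.84 and KRT14 at 1.72. For KRT18 and KRT14, with intervals of 3.93 and 4.64 kb, the listing floor of 6 counts fixed that direction in advance. Among genes of similar length CDH2 stood at percentile 77, KRT18 at 95.75, KRT8 at 87.5, OCLN at 65.75, KRT14 at 13.75 and CDH1 at 10. The median of the 5 listed epithelial genes was 121. Of 10 endothelial markers 4 were listed, 0 of them at 100 or more, with ERG at 28, ESAM at 10, TEK at 9 and VWF lowest at 6, a median of 9.5. PECAM1, CDH5, KDR, TIE1, CLDN5 and EMCN were absent. Of 12 cartilage and fat genes 5 were listed, 1 at 100 or more, with SOX6 at 140, SOX9 at 77, PPARG at 73 and MATN3 at 10, and a median of 73. ACAN, COMP, CEBPA, FABP4, ADIPOQ, PLIN1 and LPL were absent. A gene absent from the table had fewer than 6 counts, was not counted, or has had its identifier changed since, so absence gives no level.

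**Figure D4:**
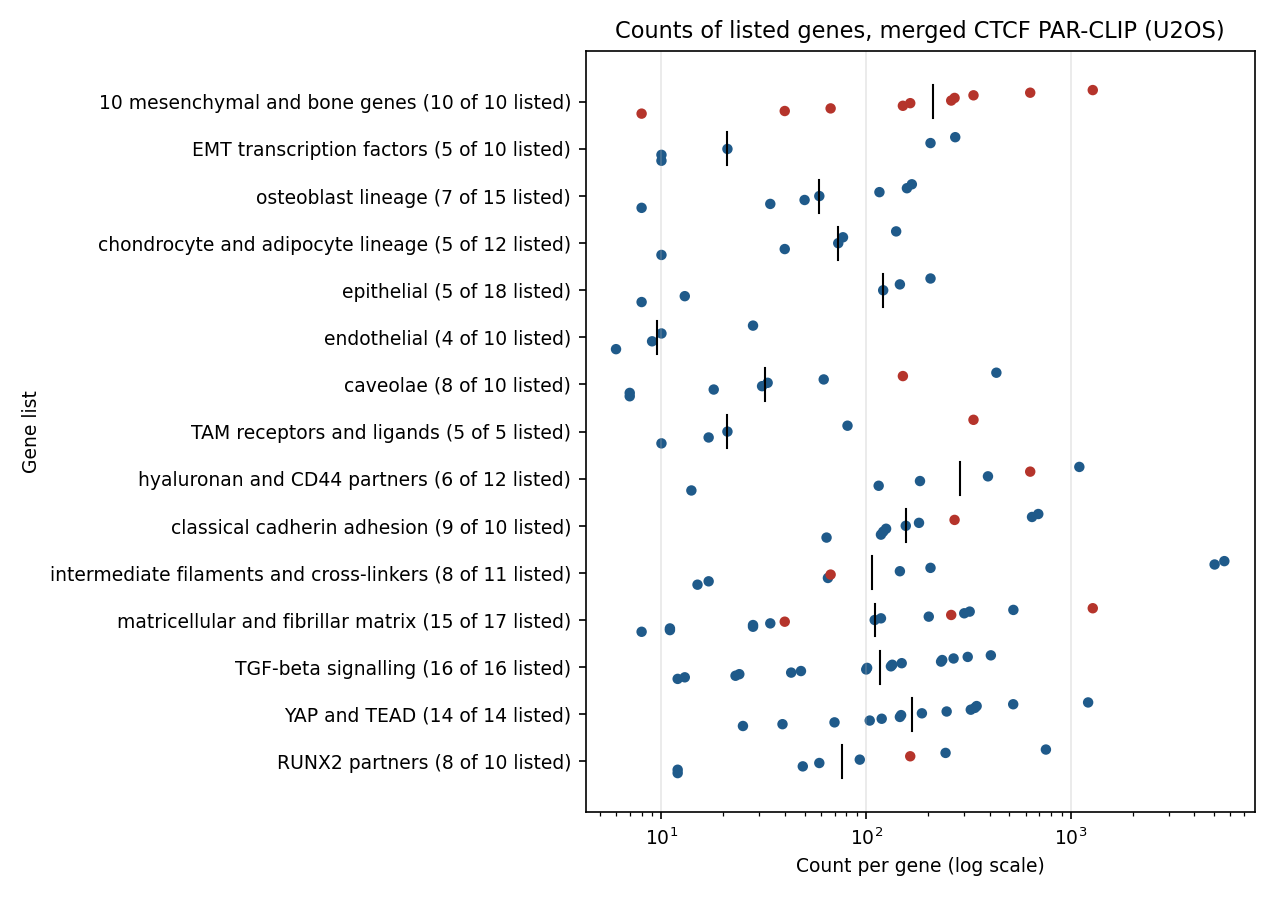
Count per gene (log scale) for the listed genes of the 10 mesenchymal and bone genes and of each pathway or lineage list. Red points are the 10 genes, blue points are others, and black lines are medians over listed genes. The 10 genes span 8 to 1277, and the endothelial list has no count above 28.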

How the data were processed

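Per the labels, the authors merged the sequencing data of 2 biological replicates of CTCF PAR-CLIP in U2OS. The deposited table gives whole-number counts for each Ensembl gene with its interval and biotype, from 6 upwards, not scaled for depth or length. Bowtie, bedtools and the hg19 build are named per the submitters' processing notes. Which step each tool did, its version, and the handling of strand, multi-mapping reads and duplicates are not given in the sources used. The counts summed to 1322047, which is not the library size because overlapping genes share reads. Identifiers were paired with symbols for 16520 of 17201 genes. RefSeq GRCh38.p14 served for names, gene order and promoter sequences, and no hg19 coordinate was converted.

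Interval length was end minus start. Each gene was ranked among the 200 listed protein-coding genes nearest in length, 100 on each side. Genes sharing at least 1 base were called overlapping. Intervals at 95% are exact Poisson for counts, Clopper-Pearson for shares and exact conditional for ratios per kb. The ranks and intervals were tested on simulated data. With 1 merged sample there was no test between conditions and no p-value. Described genes are the 10 members, listed genes overlapping or flanking them, and in each of 14 lists the 3 highest, the lowest and absent genes; other names were chosen after their values were seen. The members and lists were chosen with earlier results of these data known. In the osteoblast list, 1 gene is not reported here and was left out of its counts. The CTCF letters searched in promoters were shortened after matches to a longer form had been seen. Alternatives changed the count minimum, the length matching, the gene classes compared and the treatment of overlapping genes. Python 3.11.15, pandas 2.3.3 and scipy 1.17.1 were used.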

Additional observations from a re-analysis of the deposited data

How the results depend on the processing

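All 10 genes were listed, 9 had 10 counts or more and 7 had 100 or more. The number above the median of their neighbours in length, 9, was also 9 with 100 or 400 neighbours, among genes of every class, among genes overlapping no other, and with inner counts subtracted. It was 8 by count and 7 by count per kb without length matching. VIM and THBS1 are among the 7 by count per kb. In intervals of 1.69 and 1.33 kb the listing floor of 6 counts alone puts them above that median. With length matching it was 7 of 8 without VIM and THBS1, a choice made after seeing the data. The median count of 212 was 53.5 over the 4 genes that overlap no other, and 265 without VIM and THBS1. FN1's share of the summed count, 39.9%, was 14.4% per kb and 91.7% among those 4 genes. By count instead of count per kb, FN1 moved to place 1 from 3, CD44 to 2 from 6, AXL to 3 from 5, CDH2 to 4 from 8, VIM to 8 from 1 and THBS1 to 9 from 2. A minimum of 10 counts left 2 of 4 endothelial genes. Without genes that overlap another, listed genes numbered 3 of 5 EMT factors, 2 of 5 epithelial genes, 4 of 8 caveolar, 2 of 5 TAM, 3 of 6 hyaluronan, 5 of 9 cadherin, 5 of 8 filament, 10 of 16 TGF-beta and 9 of 14 YAP genes, since the setting removes genes. No paired analysis was possible because the merge is the only sample analysed, and for the same reason no replicate was left out. Depth limits ALPL, at 8 counts, and others near the floor of 6.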

Other observations

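Of the 20 listed genes that flank the 10, 12 had fewer counts per kb than the gene beside them and 8 had more. The flanks were not matched for length and run from 0.651 to 261 kb. They lie 0.730 to 1311 kb away, so many are not close neighbours. Each is the nearest listed gene, with 6 counts or more, so a short flank is dense by that floor. The tally is therefore a description only. FN1 had 16.9 counts per kb and ATIC, a purine synthesis gene 10.7 kb away, 1.82 from 69 counts, while MREG on the other side of FN1 had 23 counts. SPARC had 9.97 per kb, and FAT2 and ATOX1 on either side of it 0.682 and 0.791, from 19 and 8 counts. AXL had 7.85 per kb and HNRNPUL1, for a nuclear RNA-binding protein, 6.81, from 307 counts in an interval that starts 0.730 kb beyond AXL. CAV1 had 4.15 per kb and MET, the receptor of hepatocyte growth factor, 4.59, from 125 counts at a distance of 111 kb.

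ALPL was sparser than both of its flanks. It had 0.116 counts per kb, and USP48, a deubiquitinase gene 100.2 kb away, 2.27 from 238 counts. The pseudogene NBPF2P had 8 counts in 3.34 kb. A gene that short is listed, from 6 counts upwards, only at a density above that of ALPL, so this side was fixed in advance. RUNX2 had 0.749 per kb and CDC5L, a spliceosome gene 878 kb away, 2.93 from 184 counts. ENPP4, 583 kb away on the other side, had 11 counts. CD44 had 6.76 per kb and lies between PDHX with 1.23, from 55 counts, and FJX1 with 11.2, from 13 counts in 1.16 kb. CDH2 had 1.19 per kb and KCTD1, 1311 kb away, 0.167 from 31 counts. On the other side of CDH2, the pseudogene ARIH2P1, 474 kb away, had 12.9 from 19 counts in 1.48 kb. Towards lower coordinates, antisense genes 462 kb from THBS1 and 25.3 kb from CAV1 had 14 and 16 counts over 253 and 261 kb. A protein-coding gene with no symbol, 321 kb from AXL, had 105 counts over 97.0 kb.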
